A study of Caenorhabditis elegans with 12 samples.

Results

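The 10 genes described here encode enzymes of the methionine cycle and of the methylation route to phosphatidylcholine in C. elegans. They are metr-1, mthf-1, sams-1, sams-3, sams-4, ahcy-1, pmt-1, pmt-2, cbs-1 and cth-2. They were chosen by name for their place in the pathway, with earlier results of these data known, and all 10 were found among the 46726 genes of the table and passed the filter on low values, which 14965 genes did. RNA-seq libraries came from wild-type N2 larvae in late L1, grown in liquid at 20 °C on HB101 bacteria. One synchronous culture was split into 6 at 6 h after hatching. Of these, 3 received an ethanol solution of equal parts ascr#2, ascr#3 and ascr#8 (ascaroside cultures 1 to 3) and 3 received ethanol alone (ethanol cultures 4 to 6), and RNA was taken from whole worms 3 h later. For the 3 ascarosides together, the labels state 5 µM and the methods of the study 0.5 µM in the culture. The libraries of daf-22(ok693) mutants were not analysed here.

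Ascarosides are small glycolipid pheromones that, at high density, direct young larvae towards the dauer stage. The methionine cycle makes S-adenosylmethionine (SAM), the methyl donor of most cellular methylation, and regenerates methionine from the homocysteine that is left once the methyl group has been used. In worms a large consumer of SAM is the methylation of phosphoethanolamine to phosphocholine by PMT-1 and PMT-2. It feeds the synthesis of phosphatidylcholine, a major membrane phospholipid. Homocysteine can instead leave the cycle by transsulfuration, which ends in cysteine.

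Values are normalized counts, the reads on a gene divided by a size factor of its library. The 6 libraries held between 11133417 and 19116807 reads on genes. The 10 genes had between 141 reads (sams-3 in culture 3) and 34494 reads (ahcy-1 in culture 4) in a library. Ascaroside cultures lay closer to each other (median absolute log2 difference per gene 0.18 in each pair) than ethanol cultures (0.25 to 0.31 between pairs). The 6 cultures came from one population, so the p-values measure the spread between cultures of that population. The smallest exact permutation p for a single gene with 3 against 3 cultures is 0.1, so the calls rest on the spread that limma shares across genes. The labelled stage is larval, and the 4 adult-stage markers vit-2, vit-5, vit-6 and col-19 had 0 to 16 reads in a library.

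With ascarosides, both phosphoethanolamine methyltransferase genes rose, pmt-1 about 1.99-fold and pmt-2 about 1.57-fold. The transsulfuration gene cbs-1 rose about 1.34-fold. The SAM synthetase gene sams-3 fell to 0.586 of its level in ethanol cultures. The other 6 genes were not called, and all 6 had negative log2 fold changes, between -0.36 and -0.05. In all, 4 of the 10 genes (3 higher, 1 lower) passed an adjusted p of 0.05 in limma with Benjamini-Hochberg adjustment over all genes, against 3.52% of the 14965 genes tested (2.06% higher and 1.46% lower). At an unadjusted p of 0.05, 3 of the 10 were higher and 3 lower, against 15.2% of all genes tested. Since the 10 were picked with earlier results known, this count is a description of them. Among genes with a mean at least as high as that of sams-3, the lowest of the 10, 5.3% were called. The median log2 fold change was -0.18 over the 10 genes and 0.002 over all genes tested. Over all genes tested the median absolute log2 fold change of a single gene was 0.18. Medians of other sets of 10 genes were not computed, so how common a list median of -0.18 is was not tested. The share of all genes with a negative log2 fold change was not counted. In bulk RNA from whole worms, a change in the number of cells that express a gene and a change in RNA per cell cannot be told apart.

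**Figure D1:**
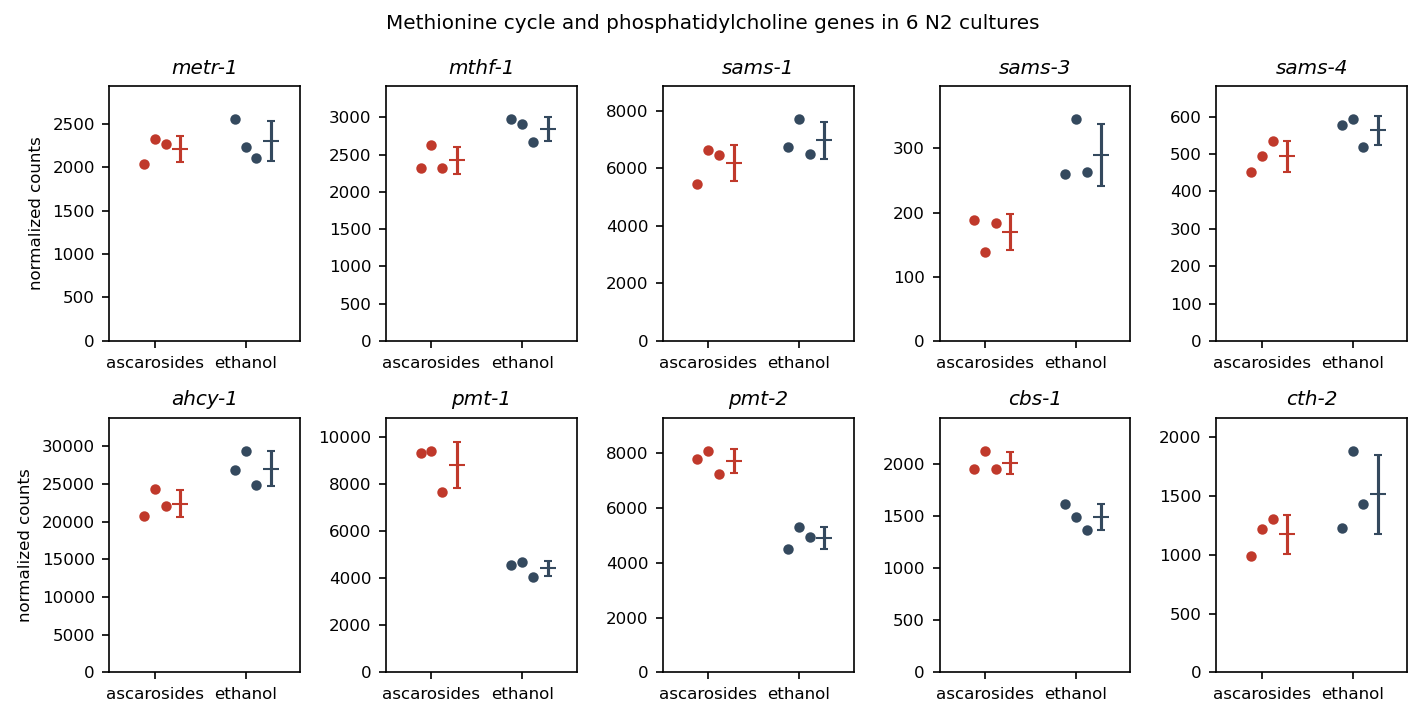
Normalized counts (vertical axes, from 0) of the 10 genes in 3 ascaroside cultures (red) and 3 ethanol cultures (dark), with the mean and SD beside the points. The ascaroside points lie wholly above the ethanol points for pmt-1, pmt-2 and cbs-1, wholly below them for sams-3, mthf-1 and ahcy-1, and overlap them for the other 4 genes.

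The largest rise among the 10 genes was in the methylation route to phosphatidylcholine. PMT-1 adds the first methyl group to phosphoethanolamine. The pmt-1 gene (WBGene00022781, chromosome II) had 9337, 9422 and 7678 normalized counts in ascaroside cultures 1, 2 and 3, and 4563, 4674 and 4073 in ethanol cultures 4, 5 and 6. Every ascaroside culture was thus well above every ethanol culture, and culture 3 was the lowest of the ascaroside cultures. The means were 8812 ± 983 with ascarosides and 4436 ± 320 with ethanol (SD, n = 3 each). In limma this was a difference of 0.99 on the log2 scale, with a standard error of 0.12, a 95% interval of 0.74 to 1.23 and an adjusted p of 1.15e-04.

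PMT-2 carries out the later methylations that give phosphocholine. The pmt-2 gene (WBGene00018811, chromosome V) had 7784, 8077 and 7217 normalized counts in ascaroside cultures 1 to 3, and 4480, 5285 and 4924 in ethanol cultures 4 to 6. These groups did not overlap either. The means were 7693 ± 437 with ascarosides and 4896 ± 403 with ethanol (SD, n = 3 each), which in limma was a log2 fold change of 0.65 with a standard error of 0.11 (95% interval 0.42 to 0.89, adjusted p = 0.00195). Both genes kept an adjusted p under 0.05 whichever single culture was left out, with log2 fold changes of 0.93 to 1.08 for pmt-1 and 0.59 to 0.71 for pmt-2.

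SAM synthetases join methionine and ATP to form SAM. The set of 10 holds the synthetase genes sams-1, sams-3 and sams-4, of which sams-1 had the most counted reads. Reads that fit both sams-3 and sams-4 equally well were not counted, so the shares below are uncertain. Per kilobase of exon, sams-1 made up 87.6%, 89.4% and 88.2% of the summed level of sams-1, sams-3, sams-4 and sams-5 in ascaroside cultures 1 to 3, and 87.1%, 87.3% and 87.3% in ethanol cultures 4 to 6. The sams-1 gene (WBGene00008205, chromosome X) had 5467, 6622 and 6449 normalized counts in ascaroside cultures and 6731, 7708 and 6491 in ethanol cultures. These values overlap, and the log2 fold change of -0.18 (95% interval -0.42 to 0.07, adjusted p = 0.529 from limma) was not called.

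The minor synthetase gene sams-3 (WBGene00015538, chromosome IV) had 188, 138 and 184 normalized counts in ascaroside cultures 1 to 3, and 261, 345 and 263 in ethanol cultures 4 to 6. All ascaroside values lay below all ethanol values. The means were 170 ± 27.8 with ascarosides and 290 ± 48.2 with ethanol (SD, n = 3 each), and limma gave a log2 fold change of -0.77 with a standard error of 0.17 (95% interval -1.12 to -0.41, adjusted p = 0.0142). Among the fits with one culture left out, the call was lost only without ascaroside culture 2, the lowest. There the log2 fold change was -0.63 and the adjusted p 0.143 from limma, with 1.45% of all genes called. Without ethanol culture 5 it was -0.64 with an adjusted p of 0.0434, and 3.74% of all genes were called. The share of sams-3 in the summed synthetase level per kilobase was 2.78% ± 0.653 with ascarosides and 4.08% ± 0.312 with ethanol (SD, n = 3 each).

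The neighbouring gene sams-4 (WBGene00015540, chromosome IV) had 453, 494 and 535 normalized counts in ascaroside cultures and 577, 593 and 519 in ethanol cultures. Its values overlap, with a log2 fold change of -0.19 (95% interval -0.45 to 0.07, adjusted p = 0.507 from limma). Both genes are closely related in sequence and lie side by side on opposite strands, with 0 protein-coding genes between them in the WBcel235 annotation. A read of 50 bases that fits both genes equally well was assigned to neither, so the counts of both are uncertain, and how many reads they lost was not measured here. In the annotation sams-3 also shares 18 of its 1997 exon bases with C06E7.4 on the other strand, a gene with a log2 fold change of 0.18 (adjusted p = 0.547). The fourth synthetase gene, sams-5, had 11.8, 26.6 and 10.4 normalized counts in ascaroside cultures and 10.1, 16.0 and 15.7 in ethanol cultures, and the 95% interval of its log2 fold change was wide, from -0.87 to 1.11.

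Once SAM has given up its methyl group, S-adenosylhomocysteine remains, which inhibits methyltransferases until AHCY-1 splits it into adenosine and homocysteine. The ahcy-1 gene (WBGene00019322, chromosome I) had 20743, 24303 and 22053 normalized counts in ascaroside cultures 1 to 3, and 26836, 29424 and 24865 in ethanol cultures 4 to 6. The groups did not overlap, but they came close, with 24303 in culture 2 and 24865 in culture 6. The log2 fold change was -0.27 (95% interval -0.56 to 0.01) and the gene was not called (adjusted p = 0.351 from limma).

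Homocysteine is returned to methionine by METR-1, the cobalamin-dependent methionine synthase, with a methyl group from folate that MTHF-1 prepares. The metr-1 gene (WBGene00010988, chromosome II) had 2041, 2324 and 2264 normalized counts in ascaroside cultures and 2550, 2235 and 2101 in ethanol cultures. This was the smallest difference among the 10 genes, with a log2 fold change of -0.05 (95% interval -0.28 to 0.18, adjusted p = 0.877 from limma), and its sign changed when culture 1 (0.0036) or culture 4 (0.026) was left out. The mthf-1 gene (WBGene00015512, chromosome II) had 2320, 2631 and 2316 normalized counts in ascaroside cultures and 2975, 2906 and 2668 in ethanol cultures. These groups were only just apart, and the log2 fold change of -0.24 (95% interval -0.46 to -0.01) had an unadjusted p of 0.0386 and an adjusted p of 0.292 in limma.

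Transsulfuration takes 2 steps, of which CBS-1, cystathionine beta-synthase, carries out the first and CTH-2, a cystathionine gamma-lyase, the second. The cbs-1 gene (WBGene00013866, chromosome X) had 1945, 2125 and 1947 normalized counts in ascaroside cultures 1 to 3, and 1617, 1494 and 1364 in ethanol cultures 4 to 6. The groups did not overlap, with means of 2005 ± 103 with ascarosides and 1492 ± 126 with ethanol (SD, n = 3 each). Limma gave a log2 fold change of 0.43 with a standard error of 0.11 (95% interval 0.20 to 0.65, adjusted p = 0.0319). This call was lost when ascaroside culture 1, 2 or 3 or ethanol culture 6 was left out (adjusted p = 0.124, 0.229, 0.105 and 0.176), with log2 fold changes of 0.37 to 0.45 in these fits.

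The cth-2 gene (WBGene00022856, chromosome II) had 993, 1218 and 1307 normalized counts in ascaroside cultures and 1231, 1884 and 1429 in ethanol cultures. Its values overlap and culture 5 stood highest. The log2 fold change was -0.36 (95% interval -0.66 to -0.05, unadjusted p = 0.0252, adjusted p = 0.233 from limma), and its size, though not its sign, varied with single cultures. It was -0.24 (adjusted p = 0.677) without ascaroside culture 1, -0.19 (adjusted p = 0.531) without ethanol culture 5, and -0.49 (adjusted p = 0.0124) without ethanol culture 4. The second lyase gene, cth-1, was about as high in both groups, at 3463, 3637 and 4077 normalized counts in ascaroside cultures and 3188, 4674 and 3828 in ethanol cultures (log2 fold change -0.05, adjusted p = 0.903). The second synthase gene, cbs-2, had 1 to 13 reads in a library and was below the filter.

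**Figure D2:**
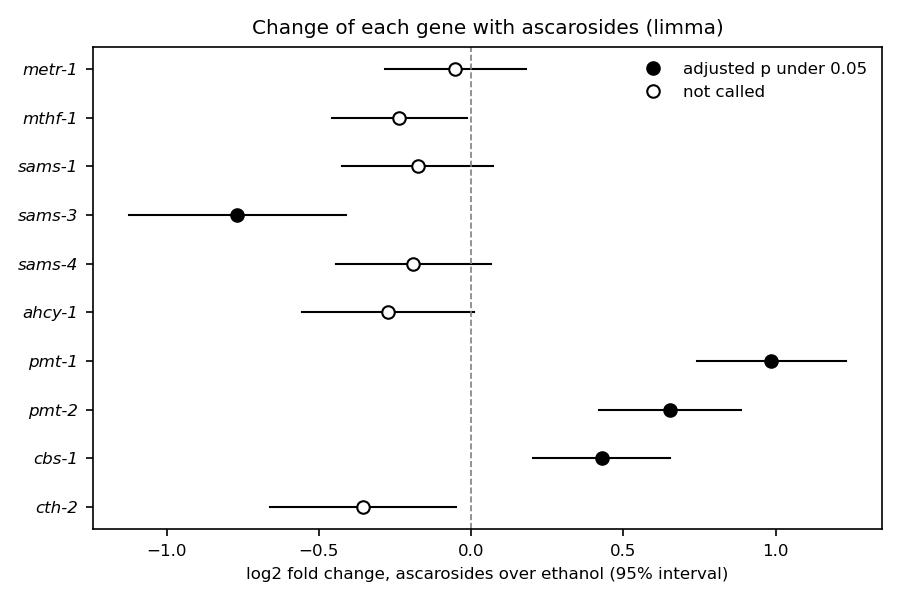
Log2 fold change of each gene, ascarosides over ethanol (horizontal axis), with its 95% interval from limma, for 3 against 3 cultures. Filled points (pmt-1 at 0.99, pmt-2 at 0.65, cbs-1 at 0.43 and sams-3 at -0.77) passed an adjusted p of 0.05, and the 6 open points lie between -0.36 and -0.05.

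The 4 calls did not depend on the scaling of the libraries. Under quantile normalization and upper-quartile scaling all 4 were called with the same signs, as they were with edgeR and DESeq2 on the recovered reads. Over all genes tested, 3.3% were called after quantile normalization, 3.5% with upper-quartile scaling, 3.6% in edgeR and 4.79% in DESeq2. The 4 were also called with a pseudocount of 0.5 (3.42% of all genes) or 5 (3.72%), without the filter (2.28%), with a minimum mean of 50 (4.58%, or 4.45% of such genes in the reported fit) and with robust eBayes (3.41%). Where eBayes was run with 1 prior variance for all genes instead of a trend, none of the 10 was called (adjusted p = 0.0874 for pmt-1, 0.128 for pmt-2, 0.193 for sams-3 and 0.229 for cbs-1), and 1 gene was called among all those tested (0.00668%). Leaving out ascaroside culture 1, 2 or 3, 3, 2 and 3 of the 10 were called, against 1.66%, 1.45% and 2.21% of all genes. Leaving out ethanol culture 4, 5 or 6, 5, 4 and 3 were called, against 9.6%, 3.74% and 2.22%.

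Of the 10 genes, 6 had groups that did not overlap, 3 above and 3 below, against 19.3% of all genes tested (9.78% above and 9.53% below). Ascaroside cultures 1, 2 and 3 were above the mean of their group for 3, 9 and 5 of the 10 genes. Ethanol cultures 4, 5 and 6 were above theirs for 5, 9 and 1. The medians of these deviations over the 10 genes were small, from -0.12 log2 units in culture 6 to 0.10 in culture 5. The same counts were not taken over all genes, so whether they are particular to the 10 is not known. The 10 genes share libraries and size factors, so they are not independent of each other.

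Levels of different genes can be set side by side only per length, and here they are given as normalized counts per kilobase of the union of exons. In ascaroside cultures ahcy-1 stood highest at 14561 ± 1172, followed by pmt-2 at 4887 ± 278, pmt-1 at 4690 ± 523 and sams-1 at 2739 ± 276 per kilobase (SD, n = 3). Next came mthf-1, cth-2 and cbs-1 between 874 and 885, then metr-1 at 560, sams-4 at 261 and sams-3 at 85.1. In this order the ranges of mean ± SD overlapped for pmt-2 and pmt-1 and for mthf-1, cth-2 and cbs-1, and not for the other neighbours.

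In ethanol cultures ahcy-1 was also highest, at 17605 ± 1489 per kilobase, and was followed by pmt-2 at 3111 ± 256, sams-1 at 3092 ± 286 and pmt-1 at 2361 ± 170 (SD, n = 3). Then came cth-2 at 1140, mthf-1 at 1041, cbs-1 at 650, metr-1 at 581, sams-4 at 298 and sams-3 at 145. Here the ranges of mean ± SD overlapped for the pairs pmt-2 and sams-1, cth-2 and mthf-1, and cbs-1 and metr-1. The place of pmt-1 relative to sams-1 thus differed, with pmt-1 above sams-1 with ascarosides and below it with ethanol. With the longest transcript as the length, sams-1 (3473) came before pmt-2 (3111) in ethanol cultures, and no other place in either order changed.

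**Figure D3:**
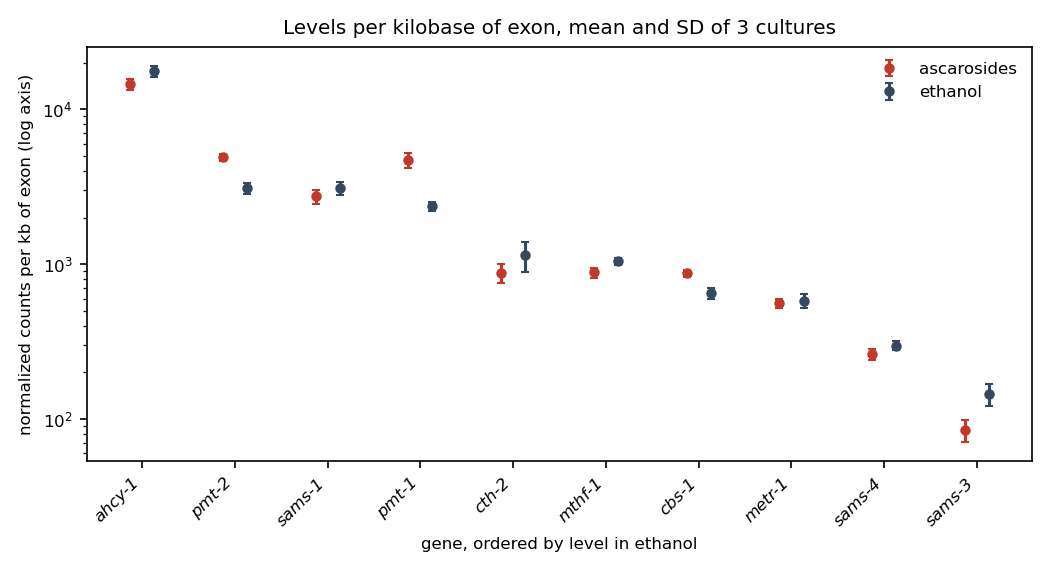
Normalized counts per kilobase of exon (log axis) of the 10 genes with ascarosides (red) and with ethanol (dark), as mean and SD of 3 cultures. Levels span from 85.1 for sams-3 to 14561 for ahcy-1 with ascarosides, and pmt-1 stands above sams-1 with ascarosides only.

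Ratios of 2 genes within one culture do not depend on the size factor. The ratio of pmt-1 to sams-1 per kilobase was 2.05, 1.71 and 1.43 in ascaroside cultures 1 to 3, and 0.814, 0.728 and 0.753 in ethanol cultures 4 to 6. The ratio of pmt-1 to ahcy-1 was 0.368, 0.317 and 0.285 in ascaroside cultures, and 0.139, 0.130 and 0.134 in ethanol cultures. Relative to the genes for making SAM and for clearing its product, pmt-1 was therefore higher with ascarosides in every culture, by 1.16 and 1.26 log2 units on average. The ratio of pmt-1 to pmt-2 was 1.00, 0.977 and 0.891 in ascaroside cultures, and 0.853, 0.741 and 0.693 in ethanol cultures, so that pmt-1 was higher relative to pmt-2 as well.

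Within the synthetase pair, the ratio of sams-3 to sams-4 was 0.393, 0.264 and 0.325 in ascaroside cultures, and 0.427, 0.551 and 0.480 in ethanol cultures. Within transsulfuration, the ratio of cbs-1 to cth-2 was 1.13, 1.01 and 0.863 in ascaroside cultures, and 0.760, 0.459 and 0.553 in ethanol cultures. In all 6 ratios computed, the sixth being pmt-1 to pcyt-1 below, the groups did not overlap. Each had an exact two-sided permutation p of 0.1, the smallest that 3 against 3 cultures allow, and 0.1 after Benjamini-Hochberg adjustment over the 6. These pairs were chosen with the values known.

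**Figure D4:**
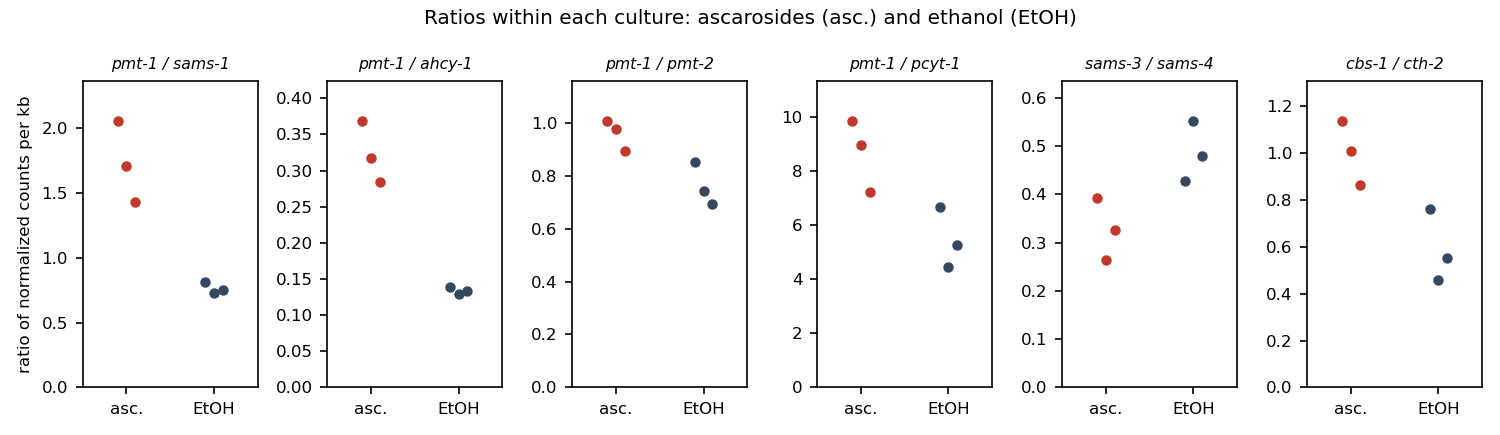
Ratios of normalized counts per kilobase within each culture (vertical axes, from 0) for 6 pairs of genes, in 3 ascaroside cultures (asc., red) and 3 ethanol cultures (EtOH, dark). No pair overlaps between groups: pmt-1 to sams-1 lies between 1.43 and 2.05 with ascarosides and between 0.728 and 0.814 with ethanol.

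Most genes of the lists around the 10 were not called. Their counts stand against 3.52% of all genes called in the full fit and 9.6% without ethanol culture 4. All lists were chosen with earlier results of these data known, so their counts are a description. The Kennedy pathway makes phosphatidylcholine from dietary choline. Its choline kinases give phosphocholine, which PMT-1 and PMT-2 also supply. From phosphocholine on, PCYT-1 (which makes CDP-choline) and choline phosphotransferases act in turn for both sources. Of the 16 genes of this route and of the phosphatidylserine route, limma called 0 at an adjusted p of 0.05 and 2 higher and 0 lower at an unadjusted p of 0.05, and edgeR and DESeq2 also called 0. Limma called 2 without ethanol culture 4 (9.6% of all genes) and 1, pcyt-1, without ethanol culture 5 (3.74%). Their median log2 fold change was 0.08 and their range -0.34 to 0.36. The pcyt-1 gene had 713, 791 and 799 normalized counts in ascaroside cultures and 513, 788 and 581 in ethanol cultures (log2 fold change 0.31, 95% interval 0.01 to 0.61, adjusted p = 0.305). It was 0.49 (adjusted p = 0.0254) without ethanol culture 5, the highest of its group, and 0.18 (adjusted p = 0.423) without ethanol culture 4. The ratio of pmt-1 to pcyt-1 per kilobase was 9.83, 8.94 and 7.21 in ascaroside cultures and 6.67, 4.45 and 5.26 in ethanol cultures.

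Folate carries the one-carbon unit that MTHF-1 reduces. Of 13 genes of folate and cobalamin metabolism, 2 were higher and 0 lower, with a median log2 fold change of -0.02, against 3.52% of all genes called. Without ethanol culture 4, 6 were called, against 9.6% of all genes. Those of the full fit were gldc-1, the glycine decarboxylase of the glycine cleavage system, and dao-3, a methylenetetrahydrofolate dehydrogenase. The gldc-1 gene had 1844, 2258 and 2074 normalized counts in ascaroside cultures and 1501, 1600 and 1285 in ethanol cultures (log2 fold change 0.49, adjusted p = 0.0229 from limma). The dao-3 gene had 1648, 1569 and 1372 in ascaroside cultures and 1103, 1209 and 1117 in ethanol cultures (log2 fold change 0.42, adjusted p = 0.0432 from limma). Both rises were small and both calls were lost without ascaroside culture 2 or 3 or without ethanol culture 6, and that of dao-3 also without ascaroside culture 1 or after quantile normalization (adjusted p = 0.0579).

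The serine hydroxymethyltransferase gene mel-32, which loads folate from serine, had 2810, 3037 and 2921 normalized counts in ascaroside cultures and 3289, 3916 and 3508 in ethanol cultures. Its groups did not overlap, but it was not called (log2 fold change -0.29, adjusted p = 0.181; 0.0208 without ethanol culture 4). The methionine synthase reductase gene mtrr-1, which keeps METR-1 active, was not called either (log2 fold change -0.20, adjusted p = 0.540).

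Of 9 genes of cysteine and sulfide metabolism, 1 was higher and 0 lower, with a median log2 fold change of 0.19. It was sqrd-1, the sulfide:quinone oxidoreductase, with 1695, 1798 and 1499 normalized counts in ascaroside cultures and 1359, 825 and 762 in ethanol cultures (log2 fold change 0.81, adjusted p = 0.00952 from limma). Ethanol culture 4 lay near the ascaroside cultures and apart from the other ethanol cultures, and the call was lost without ascaroside culture 1 or 2 or ethanol culture 6 (adjusted p = 0.0569, 0.101 and 0.0677). Without ethanol culture 4, 2 genes of this list were called, against 9.6% of all genes.

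Of 13 other genes for enzymes that use SAM, among them histone, arginine and RNA methyltransferases, 0 were higher and 1 was lower, with a median log2 fold change of 0.05. The lower one was anmt-2, named for amine N-methylation, with 559, 711 and 692 normalized counts in ascaroside cultures and 977, 946 and 979 in ethanol cultures (log2 fold change -0.57, adjusted p = 0.00980 from limma; 0.106 without ascaroside culture 1). The RNA methyltransferase gene mett-10, known in worms to act on sams transcripts, was not called (log2 fold change 0.10, adjusted p = 0.843).

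The next list holds regulators of the pathway and the lipogenic genes linked to it. Of 10 tested, limma called 6 higher and 0 lower, with a median log2 fold change of 0.56, against 3.52% of all genes called. Without ethanol culture 6 it called 3, against 2.22% of all genes. Since this list was also chosen with earlier results known, these counts only describe it. Among the 6 are the regulators sbp-1 and nhr-114. The other regulators tested were not called in limma. They were nhr-10 (log2 fold change 0.24, adjusted p = 0.365), nhr-68 (-0.07, adjusted p = 0.867) and mdt-15 (0.33, adjusted p = 0.160). SBP-1, the worm SREBP, is a transcription factor of fat synthesis that is known to become active when phosphatidylcholine is low. The sbp-1 gene had 808, 862 and 709 normalized counts in ascaroside cultures and 580, 526 and 572 in ethanol cultures (log2 fold change 0.50, adjusted p = 0.0231; 0.138 without ascaroside culture 1, 0.203 without 2 and 0.0671 without ethanol culture 6). NHR-114, a nuclear receptor, is known to act on genes of the methionine cycle and to be needed on diets low in cobalamin. Its gene had 689, 682 and 791 normalized counts in ascaroside cultures and 422, 550 and 360 in ethanol cultures (log2 fold change 0.72, adjusted p = 0.00841; 0.0671 without ascaroside culture 3 and 0.0561 without ethanol culture 6).

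The other 4 of the 6 were pod-2 (acetyl-CoA carboxylase) and the fatty acid desaturase genes fat-5, fat-6 and fat-7. Their log2 fold changes were 0.63 for pod-2 (adjusted p = 0.00506, and 0.0648 without ascaroside culture 2 or 0.0528 without ethanol culture 6), 1.43 for fat-5 (adjusted p = 4.06e-04), 0.74 for fat-6 (adjusted p = 0.00136) and 2.13 for fat-7 (adjusted p = 5.11e-05), all from limma. The strongest of these, fat-7, had 268, 345 and 271 normalized counts in ascaroside cultures and 50.6, 100 and 57.1 in ethanol cultures. The fatty acid synthase gene fasn-1 was not called (log2 fold change -0.11, adjusted p = 0.733).

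Propionate breakdown depends on cobalamin, as methionine synthase does, and the alternative propionate shunt begins with ACDH-1, an acyl-CoA dehydrogenase whose gene is known to be low when cobalamin is plentiful. The acdh-1 gene had 4.21, 11.4 and 10.4 normalized counts in ascaroside cultures and 48.2, 81.0 and 56.0 in ethanol cultures, a log2 fold change of -2.76 (adjusted p = 6.72e-04 from limma). It was the 1 gene called of the 11 of both propionate routes, whose median log2 fold change was 0.17. With a minimum mean of 50 acdh-1 was not tested and 0 of the list were called, while 2 were called with upper-quartile scaling (3.5% of all genes), 3 in DESeq2 (4.79%) and 6 without ethanol culture 4 (9.6%).

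**Figure D5:**
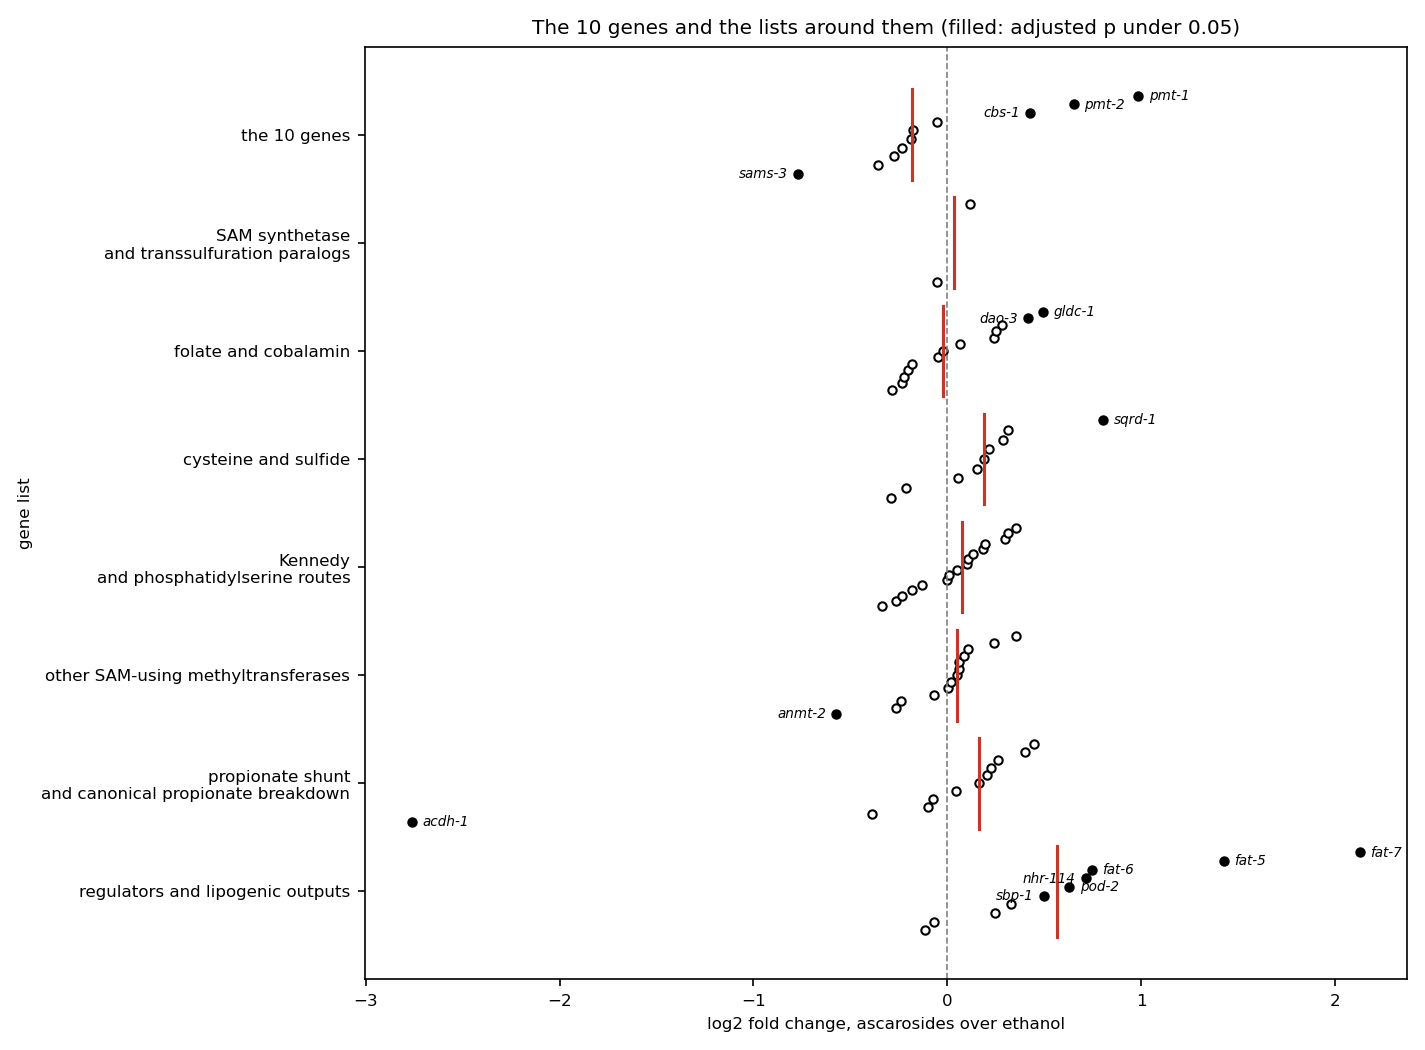
Log2 fold change, ascarosides over ethanol (horizontal axis), of each tested gene of the 10 and of 7 lists around them (rows). Filled points with names passed an adjusted p of 0.05 in limma and red bars are list medians. The list of regulators and lipogenic genes has 6 filled points and a median of 0.56, and the Kennedy and phosphatidylserine list has 0 filled points. All lists were chosen with earlier results known.

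Over the 6 cultures, the 3 tested genes whose log2 values followed pmt-1 most closely were F27D9.2 (Pearson r = 0.999), T02G5.7 (r = 0.996) and sip-1 (r = 0.996), a small heat shock protein gene. Their log2 fold changes were 0.77, 1.05 and 0.69. These correlations come from 6 points that fall into 2 groups, and they are given as a description.

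Tissue markers were checked beside these results, since the intestine is a main site of lipid synthesis in worms. Of 6 intestine markers, ges-1, a gut esterase gene, rose (log2 fold change 0.78, adjusted p = 4.20e-04 from limma), with 1047, 1198 and 1115 normalized counts in ascaroside cultures and 638, 652 and 657 in ethanol cultures. The other 5 intestine markers (elt-2, vha-6, ifb-2, act-5 and pept-1) had log2 fold changes from -0.17 to 0.11 and were not called. The summed intestine markers ranged from 31084 to 35772 normalized counts in ascaroside cultures and from 31013 to 38851 in ethanol cultures, so the groups overlapped. The 4 hypodermis markers, none of them called, summed to between 3577 and 3906 in ascaroside cultures and between 3802 and 4478 in ethanol cultures, which overlapped too. Markers of muscle, pharynx, neurons and germline also overlapped between groups in their sums, and no tissue marker was at 0 in all libraries. These sums mostly follow the markers with the most counts, and single markers moved both ways. The muscle genes myo-3 (log2 fold change 0.49, adjusted p = 0.0647 from limma) and hlh-1 (-0.47, adjusted p = 0.165) were not called. Neither had groups that overlapped. The adult-stage markers summed to between 2.61 and 10.5 in ascaroside cultures and between 15.6 and 21.3 in ethanol cultures, with vit-5 and col-19 at 0 in all 3 ascaroside cultures. Over all 27 markers of 6 tissues, 1 was called, against 3.52% of all genes tested. Groups did not overlap for 7 of the 27 (5 above and 2 below), against 19.3% of all genes tested. The part of tissue makeup in the values of the 10 genes was not tested.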

How the data were processed

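Per the study's methods, the authors checked reads of 50 nt with ShortRead, aligned them with tophat2 and counted them per gene with HTSeq-count. The deposited signal of each gene is its read count over a DESeq size factor. The methods name Ensembl WBcel215 and the processing notes name WBcel235; tool versions and the strand setting are not given in the sources used here. The WBcel235 annotation gave names, neighbours and exon lengths, and no coordinates are given.

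The last 5 lines of the table name no gene and were dropped; they make up 33.1% to 41.8% of a library, mostly reads without a unique alignment (31.6% to 40.4%). Among 46726 identifiers, a gene name table named 43623 and the annotation another 2741, which left 362 unnamed. Column names tell groups but not the labels' replicate numbers, so libraries are unpaired; 0 further value columns were present. Dividing each column by its smallest value above 0 gave whole reads for 100% of values (tolerance 0.01).

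Two-sided tests used limma 3.58.1 (R 4.3.3), with lmFit and a trended eBayes, on log2(normalized count + 1); this scale makes changes of low genes look smaller. They covered the 14965 genes whose mean reached 5, with Benjamini-Hochberg adjustment and a threshold of 0.05. The deposited values being normalized, edgeR 4.0.16 and DESeq2 1.42.0 ran on the recovered reads as alternatives. The fits were tested on simulated data. Other alternatives were pseudocounts of 0.5 and 5, no filter, a stricter filter (mean 50), upper-quartile and quantile scaling, untrended or robust eBayes, leaving out each library, and the longest transcript as length. Ratios used an exact permutation test (scipy 1.17.1) and were added after the data were seen.

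The 10 genes and all lists were chosen with earlier results of these data known. Named were the 10 and genes of the lists at an adjusted p under 0.05 (at most 5 per list, smallest p first). Also named were 10 further genes fixed by name and the 3 genes most like the member with the smallest p. The genes fasn-1, mett-10, C06E7.4, nhr-10, nhr-68 and mdt-15 were named after their values were seen. Of 108 other listed genes, 106 were matched; sqrd-2 and lpd-1 were not. The check of 50-base stretches shared between paralogs was not run, as no genome sequence was used here.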

Additional observations from a re-analysis of the deposited data

How the results depend on the processing

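The count of the 10 genes called (4) was 4 in 9 of the 10 alternatives that kept all libraries. Without the trend in eBayes it was 0, and 1 gene was called among all tested. With one replicate left out, the count of the 10 ranged from 2 without ascaroside culture 2 to 5 without ethanol culture 4, and the count over all genes (527) from 217 to 1436 at the same extremes. The cause was not tested. Signs changed for metr-1, sams-5 and cth-1, none of them called: with one replicate left out, log2 fold changes ranged from -0.11 to 0.026 for metr-1, from -0.28 to 0.36 for sams-5 and from -0.19 to 0.089 for cth-1. Over all alternatives, the regulator nhr-68 (-0.15 to 0.0025) and the intestine markers vha-6 (-0.07 to 0.08) and pept-1 (-0.16 to 0.05), not called either, also changed sign. No paired analysis was possible because replicate numbers in the labels could not be tied to columns, and a replicate block was not run. Differences as small as those of sams-1, sams-4 and metr-1 were within their intervals around 0 at 3 cultures a group.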
